A study of Mus musculus with 13 samples.

Results

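The step from haemangioblasts to haemogenic endothelium was examined in cells that lack Lmo2, in 5 of the 13 RNAseq libraries of the study. Mouse embryonic stem (ES) cells were differentiated in culture, and 3 Lmo2-/- libraries were made from Flk-1+ cells and 2 Lmo2-/- libraries from HE1. Flk-1+ cells are the haemangioblast fraction of embryoid bodies, isolated by surface Flk-1 (the product of Kdr), and HE1 is the first stage of haemogenic endothelium in the blast culture grown from them, sorted as Tie2+, Kit+ and CD41-. The same stages of WT cells, with 3 Flk-1+ and 2 HE1 libraries, served for comparison, and 3 Tal1-/- Flk-1+ libraries entered the fit but not the results. The paper names a single ES cell line for each genotype, so libraries of a genotype replicate the differentiation and not the line, and genotype and line cannot be told apart. Of 45250 genes in the deposited table, 11989 had a locus longer than 200 bp and at least 1 FPKM (fragments scaled to transcript length and library size) in 2 or more of the 5 Lmo2-/- libraries. Just inside this limit, Celf5 had 1.00 FPKM in its second highest library, and just outside it Exd1 had 0.998 FPKM.

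Haemangioblasts are mesodermal cells that can form endothelium, smooth muscle and, through haemogenic endothelium, blood. Entry into this path normally goes with loss of the primitive streak programme, with gain of vascular receptors and junction proteins, and later with a switch of haemogenic endothelium to blood progenitors. LMO2 does not bind DNA itself. It bridges TAL1, GATA factors and LDB1 in a complex that occupies regulatory elements of vascular and blood genes.

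Library quality differed between the stages and was read beside every result. Between 13345 and 15641 genes were above 0 FPKM in the Lmo2-/- Flk-1+ libraries, 12820 in HE1 replicate 0 and 9694 in HE1 replicate 1. The files hold no fragment counts, but FPKM of low genes move in steps of single fragments, and by these steps 1 fragment was worth 3.73 times as much FPKM in HE1 replicate 1 as in Flk-1+ replicate 2, against 1.21 times in HE1 replicate 0. Of 4062 tested genes with a median above 10 FPKM over the 13 libraries, 183 were listed at 0 in HE1 replicate 1 and 49.0 in replicate 0. A value of 0 in these libraries is therefore given as listed at 0, and every statement was also read in HE1 replicate 0 alone. Pairs of HE1 values below are in the order replicate 0, replicate 1.

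The difference between the stages also moved with transcript length. Among 4856 tested genes with a mean above 10 FPKM and an annotated transcript, the median Lmo2-/- HE1 minus Flk-1+ difference on the log2(FPKM + 1) scale ran from -1.47 for transcripts of up to 500 bases, through 0.52 for those of 2000 to 3000 bases, to 1.87 for those over 10000 bases. It ran the same way in HE1 replicate 0, from -1.71 to 1.63, and less steeply between the WT stages, from -0.19 to 0.99. Its part in the results was not tested. Each gene list is therefore also given after a length correction. In it a smooth curve of each library's values against transcript length was taken off before the same fit. The correction left part of the trend among short transcripts. After it the median difference was -0.85 for transcripts of up to 500 bases and -0.46 for those of 500 to 1000. For transcripts of 7000 to 10000 bases it was 0.05.

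**Figure D1:**
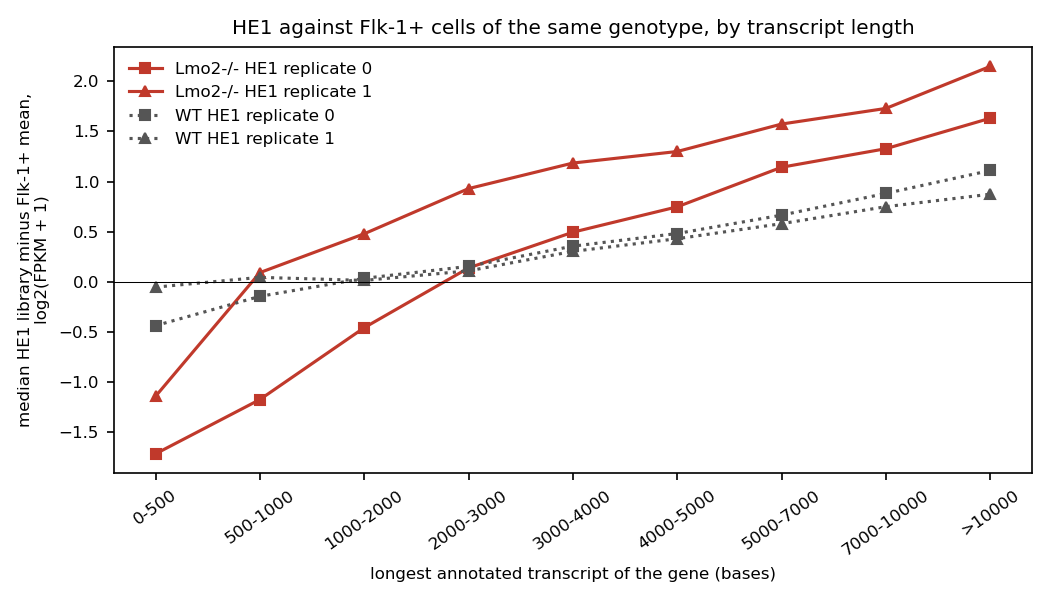
Median difference of each HE1 library from the mean of the Flk-1+ libraries of its genotype (vertical axis, log2(FPKM + 1)) in classes of the longest annotated transcript (horizontal axis, bases), for genes with a mean above 10 FPKM. Lines of the Lmo2-/- libraries (red) rise from -1.71 to 1.63 in replicate 0 and from -1.14 to 2.15 in replicate 1, and those of the WT libraries (grey) rise less.

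Tested with limma on log2(FPKM + 1) over all 13 libraries, 2707 of 13802 genes were called between Lmo2-/- Flk-1+ cells and Lmo2-/- HE1. A call needed a p below 0.05 after Benjamini-Hochberg adjustment together with a group mean above 10 FPKM. Of these, 2379 were higher in HE1 (17.2 percent of the genes tested) and 328 lower (2.38 percent). In HE1 replicate 0 alone, 2375 of the higher calls lay above all 3 Flk-1+ libraries and 320 of the lower calls lay below them. Replicate 0 entered the fit that made these calls, so these counts are no separate check of them. In no call did 1 HE1 library lie above and the other below the Flk-1+ range. The split rested on the scaling. The median log2 difference of all tested genes was 0.30 with FPKM as deposited and -0.32 after rescaling to a common median, where 700 genes were called higher and 664 lower. With quantile normalization the median log2 difference was 0.02, with 685 higher and 563 lower. After the length correction it was -0.24, with 566 genes higher (4.26 percent) and 406 lower (3.06 percent) of 13280. A call is named robust below where it was made with the deposited values, after both rescalings, after the length correction and with HE1 replicate 0 alone, that is in a fit without replicate 1. There were 412 robust calls higher in HE1 and 123 lower. With 2 libraries against 3, an exact permutation test of a single gene cannot go below a two-sided p of 0.20. Calls therefore rest on the spread that limma shares across genes and groups. Array weights, which are lower for libraries that vary more, were 0.32 for both Lmo2-/- HE1 libraries and 0.74 to 3.13 for the others. The shared spread may thus understate that of Lmo2-/- HE1. The fit with array weights is not part of the definition of a robust call.

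The targeted gene and the genes of the sort gate were read first. Lmo2 (GRCm38, chromosome 2, 103957986 to 104063240 in the deposited locus) had 2.63, 6.48 and 2.17 FPKM in the 3 Lmo2-/- Flk-1+ libraries, below the 22.8, 30.8 and 21.6 FPKM of the WT Flk-1+ libraries. In Lmo2-/- HE1 it had 6.42 FPKM in replicate 0 and was listed at 0 in replicate 1, against 4.30 and 20.6 FPKM in WT HE1, so the HE1 libraries of the genotypes overlapped. Tek, which encodes the angiopoietin receptor Tie2 used for the sort, had 0.929, 1.13 and 0.337 FPKM in Flk-1+ cells and 176 and 154 in HE1. The log2 fold change was 6.55 with a standard error of 0.42 (limma adjusted p = 3.27e-06). Kit, the stem cell factor receptor of the same gate, had 2.39, 4.24 and 2.88 FPKM in Flk-1+ cells and 50.7 and 68.5 in HE1. Its log2 fold change was 3.87 (standard error 0.43). Both calls were robust, and for Tek and Kit no HE1 library came near a Flk-1+ library. Kdr, which encodes Flk-1 itself, had 106, 151 and 101 FPKM before and 175 and 143 after, with a log2 difference of 0.43 that was not called. Itga2b, which encodes CD41, had 0.930, 0.306 and 2.13 FPKM in Flk-1+ cells, 19.8 in HE1 replicate 0 and was listed at 0 in replicate 1. The RNA of CD41, a surface protein that the gate leaves out, was thus above the Flk-1+ range in replicate 0. Tie2 and Kit were used for the sort, so the values of Tek and Kit describe the gate.

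Genes of the primitive streak and nascent mesoderm pattern the gastrulating embryo, and among those that passed the test nearly all fell. Of 24 genes on the list, 19 passed the filter, 5 were called lower and 1 higher, against 2.38 percent and 17.2 percent of all genes. Their median log2 difference was -2.11 (-1.71 with HE1 replicate 0 alone, -2.33 after the length correction and -2.31 between the WT stages). Eomes (chromosome 9, 118478212 to 118486132), a T-box factor of the early mesoderm, had 62.2, 44.2 and 63.4 FPKM in Flk-1+ cells and 0.599 FPKM in HE1 replicate 0, and was listed at 0 in replicate 1. It fell by 5.49 on the log2 scale (standard error 0.36, limma adjusted p = 3.31e-06). The other founding T-box factor, T (Brachyury), had 19.2, 64.6 and 26.2 FPKM and was listed at 0 in both HE1 libraries (limma adjusted p = 8.91e-05). Every HE1 value of these factors lay below every Flk-1+ value. Lhx1, a LIM homeobox factor of the streak, had 34.7, 18.6 and 42.8 FPKM before and 0.120 and 0 after, and Mixl1, a paired-type homeobox factor of mesendoderm, had 10.9, 37.0 and 14.7 before and 0.126 and 1.98 after. All 4 calls were robust. Snai1, the repressor that drives the epithelial-to-mesenchymal change of gastrulation, had 10.5, 37.3 and 19.6 FPKM before and 4.97 and 0 after, a fall of 3.09 on the log2 scale that was not robust, since replicate 0 alone did not pass. The signal genes Fgf3 and Rspo3 were not called. Fgf3 had 5.20, 15.9 and 10.8 FPKM before and 5.66 and 8.31 after, and Rspo3, an enhancer of Wnt signalling, had 10.8, 20.0 and 9.67 before and 19.2 and 25.8 after. Cdx2, a posterior homeobox factor that acts upstream of Hox genes, was the one list member called higher, with 0.814, 0.505 and 0.749 FPKM before and 4.87 and 22.1 after, and it was not called in replicate 0 alone.

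In the Nodal pathway, which induces mesoderm, the co-receptor genes fell. Its 17 genes gave 14 tested, 2 lower and 3 higher, against 2.38 percent and 17.2 percent of all genes, with a median log2 difference of 0.23 that turned to -0.54 after the length correction, to -0.24 with a common median and to -0.33 with HE1 replicate 0 alone. Of the co-receptors, Tdgf1 (Cripto) had 37.3, 15.1 and 20.0 FPKM and Cfc1 (Cryptic) had 18.0, 11.8 and 17.4 FPKM in Flk-1+ cells, and both were listed at 0 in both HE1 libraries (limma adjusted p = 3.85e-05 and 0.000932, both robust). The receptor gene Acvr1b (log2 difference 1.19) and the signal transducer Smad3 (1.89) were called higher, and both calls were lost after the length correction. The receptor Acvr2a, the convertase Pcsk6 and Smad2 were not called, with log2 differences of 0.62, -0.68 and 0.71. The ligand genes Nodal and Gdf3 and the inhibitor gene Lefty1 did not pass the filter.

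Of the 20 pluripotency and epiblast genes, 13 were tested and their median log2 difference was -0.36 (-0.97 after the length correction). The core factor Pou5f1 had 4.31, 2.62 and 5.53 FPKM in Flk-1+ cells and was listed at 0 in both HE1 libraries, but stayed under the limit of 10 FPKM for a call. Sall4, a zinc finger factor of pluripotent cells, had 108, 149 and 90.5 FPKM before and 72.8 and 143 after, and the de novo methyltransferase gene Dnmt3b had 26.2, 23.0 and 18.1 before and 18.0 and 16.3 after. The RNA-binding protein gene Lin28a had 55.8, 47.7 and 44.7 before and 32.3 and 156 after. None of the 3 was called. Trim71, a ubiquitin ligase of early cells, was called higher at 1.30 on the log2 scale, and its sign turned to -0.31 after the length correction.

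**Figure D2:**
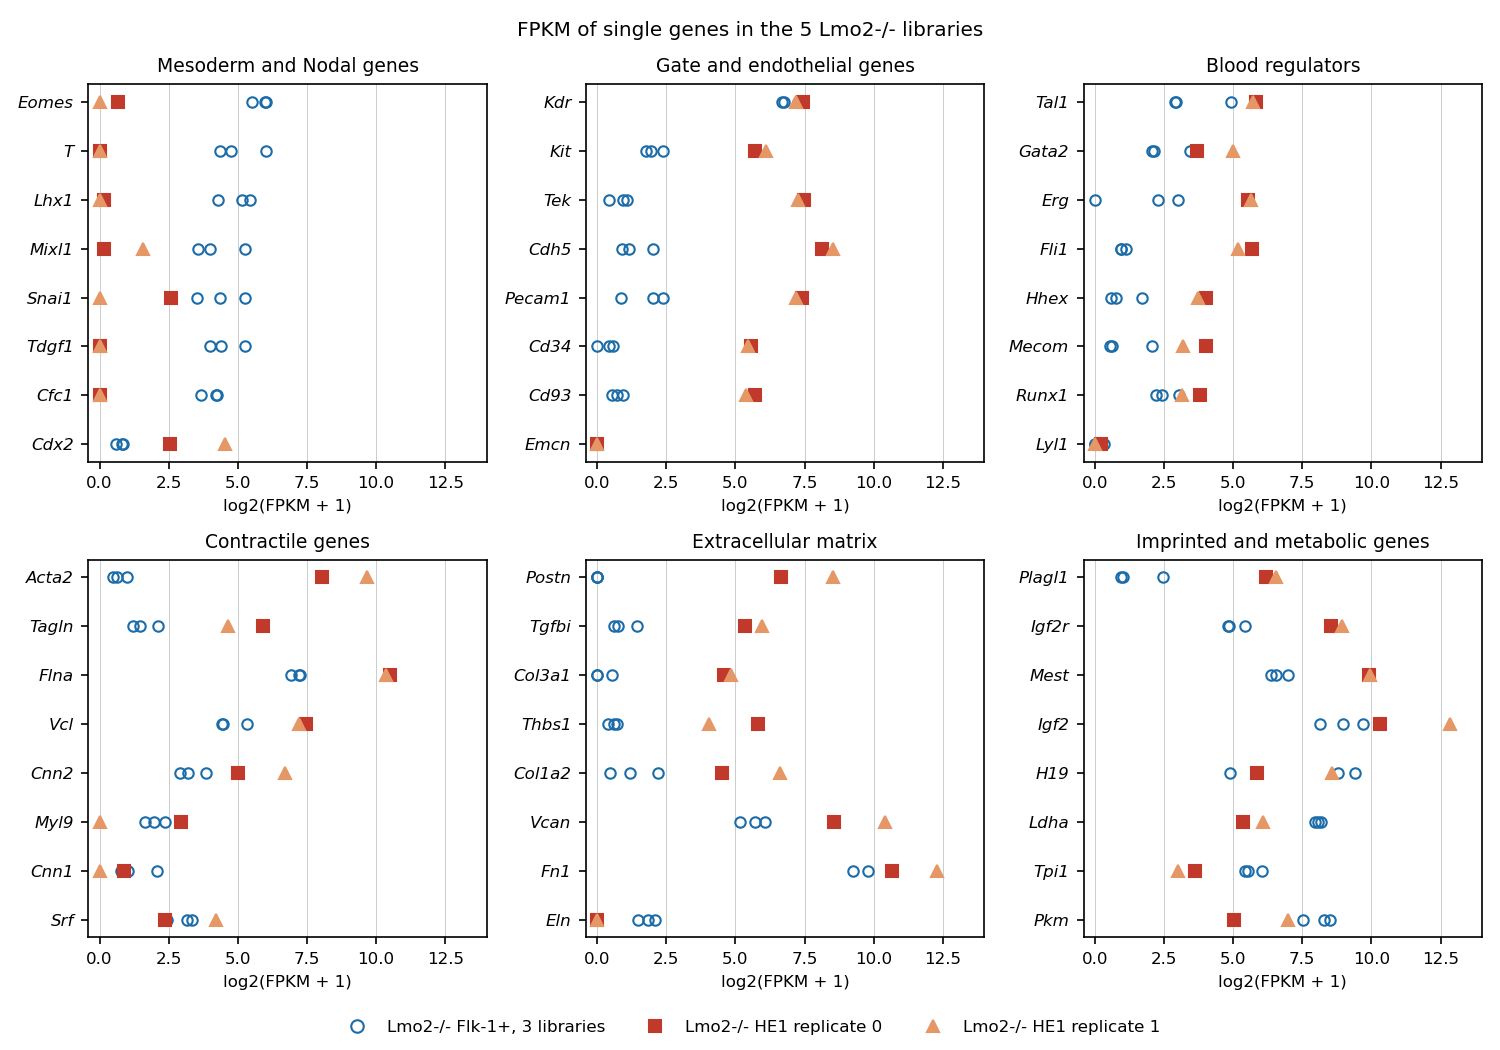
FPKM of 48 genes (horizontal axis, log2(FPKM + 1)) in the 3 Lmo2-/- Flk-1+ libraries (open circles), HE1 replicate 0 (squares) and HE1 replicate 1 (triangles), in 6 groups. Mesoderm genes such as Eomes sit at or near 0 in HE1, endothelial genes such as Cdh5 and the contractile gene Acta2 sit far to the right of the Flk-1+ values, and Fn1, Gata2 and H19 show how far the HE1 libraries can lie from each other.

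Many endothelial genes were called higher in HE1. Of 38 genes on the list, 37 were tested, 21 were called higher, none was called lower, and 17 of the calls were robust. The median log2 difference was 2.43, against 0.30 for all genes, and stayed at 1.95 after the length correction and 2.65 with HE1 replicate 0 alone. Between the WT stages it was 3.35. HE1 was sorted as Tie2+ and Kit+, and the part of this sort in the endothelial rises was not tested. A member that passed the filter only through HE1 had to be higher there, so the count is read beside the 17.2 percent called higher over all genes. Cdh5 (chromosome 8, 104101625 to 104144502), the adherens junction protein VE-cadherin, had 0.841, 3.07 and 1.24 FPKM in Flk-1+ cells and 281 and 365 in HE1. It rose by 6.97 on the log2 scale, with a standard error of 0.44 and a limma adjusted p of 3.27e-06. Pecam1, the junctional adhesion molecule CD31, had 0.832, 4.27 and 3.06 FPKM before and 167 and 144 after, and Cd34, a sialomucin of vessels and progenitors, had 0, 0.347 and 0.490 before and 46.3 and 42.4 after. In each of these genes both HE1 libraries lay close together and well above all Flk-1+ libraries. The adhesion receptor gene Adgrf5 (log2 difference 4.94) and the C-type lectin gene Cd93 (4.81) rose as well. So did regulators of the vascular programme: the ETS factor genes Fli1 (1.20, 0.928 and 0.926 FPKM before and 50.3 and 35.2 after), Erg (3.87, 0 and 7.06 before and 44.9 and 49.1 after) and Ets1 (log2 difference 3.48), and Sox7, a SOX factor of early endothelium (3.28, 18.7 and 2.59 before and 119.5 and 142 after). These 4 calls were robust. Another ETS gene, Ets2, had 4.20, 7.98 and 10.3 FPKM before and 28.2 and 16.7 after and was called at 1.49 on the log2 scale.

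Other endothelial genes were at or near 0 in the Lmo2-/- libraries or were not called. Emcn, the sialomucin endomucin, was listed at 0 in all 5 Lmo2-/- libraries and had 7.84 and 8.02 FPKM in WT HE1. Clec14a, a vascular lectin, was listed at 0 in 4 Lmo2-/- libraries with 0.984 FPKM in HE1 replicate 0, and had 11.4 and 7.42 FPKM in WT HE1. In both genes the 2 HE1 groups did not overlap, and the interaction of genotype and stage had limma adjusted p = 0.0105 for Emcn and 0.0384 for Clec14a, with levels that did not exceed a group mean of 10 FPKM. Sox17, Sox18, Icam2, Lyve1, Robo4 and Vwf had between 0.985 and 5.22 FPKM in HE1 replicate 0 and were listed at 0 in replicate 1, a library in which abundant genes were also listed at 0. Of the more abundant members without a call, Ramp2, a subunit of the adrenomedullin receptor, had 16.4, 35.9 and 32.8 FPKM before and 65.1 and 11.3 after, and Egfl7, a secreted vascular factor, had 29.4, 20.2 and 43.7 before and 26.4 and 162 after. One HE1 library of each lay above the Flk-1+ range and the other below or within it. The receptor genes Aplnr (log2 difference 1.79), Flt1 (2.06), Flt4 (2.41) and Notch1 (2.43) were called higher but were not robust. None of the 37 tested members was called in the interaction, in which 0.261 percent of all genes had a more positive step in Lmo2-/- cells and 0.0869 percent a more negative one, and their median interaction on the log2 scale was -0.43 (-0.83 after the length correction).

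**Figure D3:**
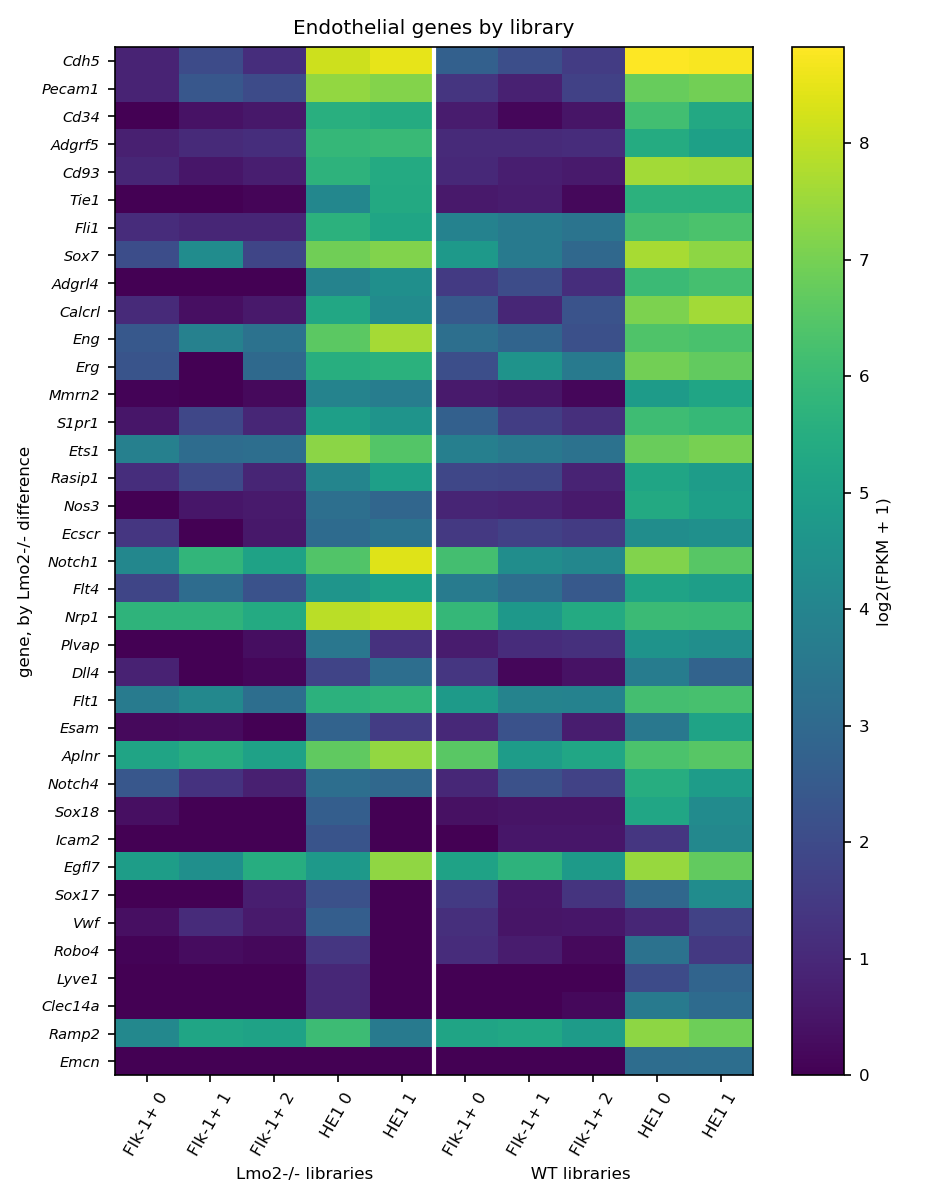
Heat map of the 37 tested endothelial genes (rows, ordered by the Lmo2-/- difference) in 10 libraries (columns, Lmo2-/- left and WT right of the white line), coloured by log2(FPKM + 1). The upper rows turn bright in all 4 HE1 libraries. Lower rows such as those of Sox18, Clec14a and Emcn stay dark in Lmo2-/- HE1 replicate 1.

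Haematopoietic regulators included the partners of LMO2. Of 24 genes, 22 were in the table, 17 were tested and 9 had at least 1 FPKM in 2 Lmo2-/- libraries. There were 4 calls, all higher, against 17.2 percent called higher over all genes, and the list median was 0, also after the length correction. Tal1, the basic helix-loop-helix partner of LMO2, had 6.51, 29.0 and 6.64 FPKM in Flk-1+ cells and 56.2 and 52.2 in HE1 (log2 difference 2.203 with a standard error of 0.53 and a limma adjusted p of 0.00915), and was not called after the length correction or either rescaling. Hhex, a homeobox factor of the haemangioblast, had 0.519, 2.26 and 0.704 FPKM before and 15.4 and 12.4 after and gave the one robust call of the list. Mecom, a zinc finger factor of stem cells, rose by 2.52 on the log2 scale, and Meis1, a HOX cofactor, by 1.64. The other partners did not pass the test. Gata2 had 3.44, 9.78 and 3.24 FPKM before and 12.0 and 30.8 after (limma adjusted p = 0.0725), and Ldb1 had 37.4, 54.3 and 103 before and 20.97 and 57.3 after. Runx1, which drives the switch from haemogenic endothelium to blood, had 7.20, 3.69 and 4.44 FPKM before and 13.1 and 7.83 after (adjusted p = 0.153), and its partner Cbfb differed by 0.67 on the log2 scale. Lyl1, a close relative of Tal1, had 0.260, 0 and 0 FPKM in Lmo2-/- Flk-1+ cells, 0.164 and 0 in Lmo2-/- HE1 and 4.49 and 5.01 FPKM in WT HE1. Nfe2 and Spi1 were listed at 0 in all 5 libraries, Gfi1 had 0.322 FPKM in 1 Flk-1+ library and was listed at 0 in the other 4, and Gfi1b had 0, 1.73 and 0.294 FPKM in Flk-1+ cells and was listed at 0 in both HE1 libraries. Cbfa2t3 was not analysed here.

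Other regulators that the study names were read in the same way. Runx1t1, a corepressor gene, had 2.85, 4.15 and 2.89 FPKM in Flk-1+ cells and 16 and 119 in HE1, and Nfatc1, a calcium-regulated factor of endocardium, had 3.19, 7.71 and 3.38 before and 22.8 and 35.6 after. Both were called higher, at 3.41 on the log2 scale and 2.44. The nuclear receptor gene Rxra (log2 difference 2.13) and the signal transducer Stat5b (1.88) were called higher too. Stat3 (log2 difference 0.66) and Ebf1 (-0.23) were not called. Ebf1, a B-lineage factor, had 9.85 FPKM in HE1 replicate 0 and was listed at 0 in replicate 1. Lmo1, the paralogue of Lmo2, was listed at 0 in both HE1 libraries and in 2 of the Flk-1+ libraries.

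Smooth muscle is another fate of the haemangioblast, and part of its contractile genes rose in Lmo2-/- HE1. Of 27 genes, 23 were tested, 12 were called higher, against 17.2 percent of all genes, and none lower, and 4 calls were robust. The median log2 difference was 1.46 (0.96 after the length correction, 0.49 with a common median and 0.93 between the WT stages). Acta2 (chromosome 19, 34241090 to 34255336), smooth muscle actin, had 0.394, 0.976 and 0.553 FPKM in the Flk-1+ libraries and 263 and 816 in HE1. Its rise by 8.16 on the log2 scale, with a standard error of 0.51 and a limma adjusted p of 3.27e-06, was the largest rise over all genes tested, and WT HE1 had 165 and 114 FPKM. Tagln, the actin-binding protein SM22, had 1.34, 3.32 and 1.73 FPKM before and 59.0 and 24.1 after. The actin cross-linker gene Flna had 120.3, 149.6 and 147 FPKM before and 1433 and 1312 after, and Vcl, the focal adhesion protein vinculin, had 21.1, 39.1 and 20.4 before and 174 and 146 after. The HE1 libraries lay several-fold above the Flk-1+ range in each. These 4 genes gave the robust calls. Cnn2, a calponin found outside muscle too, had 8.24, 6.43 and 13.6 FPKM before and 30.9 and 104 after and did not pass in replicate 0 alone. Other members were not called. Cnn1 had 1.06, 3.24 and 0.713 FPKM before and 0.853 and 0 after, the regulatory light chain gene Myl9 had 2.87, 4.17 and 2.14 before and 6.66 and 0 after, and Myocd, the cofactor that switches on the contractile programme, had 1.82, 1.97 and 7.25 before and 2.29 and 2.80 after. Of the rest, Myh11, Actg2, Lmod1 and Synpo2 did not pass the filter. Srf, Tpm1 and Tpm2, at log2 differences of 0.31, 0.43 and 0.90, were not called either.

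Serum response factor acts on many contractile and immediate early genes through the CArG box. In promoters of 300 bases (250 before to 50 after the RefSeq gene start, GRCm38.p6), an exact CArG box was present in 425 of 27025 symbols (1.57 percent). It was present in 4 of the 23 contractile genes with a promoter in the table (17.4 percent), namely Cnn2, Myl9, Srf and Vcl, and in 1 of 17 AP-1 and immediate early genes (5.88 percent), namely Zfp36. The box reads the same on both strands, so each match counts once. Of these genes Cnn2 and Vcl were called higher in HE1, and their promoters are shown with the box in capitals, at chr10:79988350-79988649 on the plus strand, box starting at position -56 from the gene start, and at chr14:20929148-20929447 on the plus strand, box starting nearer the upstream end (position -227).
Cnn2: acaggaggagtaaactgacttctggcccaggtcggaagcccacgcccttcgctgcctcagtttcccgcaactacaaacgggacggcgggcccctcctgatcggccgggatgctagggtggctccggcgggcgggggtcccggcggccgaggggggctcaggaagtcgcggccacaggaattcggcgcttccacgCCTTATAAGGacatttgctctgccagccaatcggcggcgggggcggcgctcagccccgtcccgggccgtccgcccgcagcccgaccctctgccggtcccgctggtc
Vcl: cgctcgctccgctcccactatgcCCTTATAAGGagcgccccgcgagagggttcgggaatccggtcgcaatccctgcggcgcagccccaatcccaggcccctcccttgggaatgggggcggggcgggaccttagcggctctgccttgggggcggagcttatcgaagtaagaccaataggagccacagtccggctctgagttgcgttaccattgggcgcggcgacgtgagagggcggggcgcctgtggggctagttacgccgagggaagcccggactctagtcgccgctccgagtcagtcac
A match describes these letters only. Promoters of Tagln, Myocd, Myh11 and Actg2 were not analysed here.

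Most of the extracellular matrix genes tested were called higher. Of 36 genes, 34 were tested, 25 were called higher and none lower, and 18 calls were robust. Over all genes 17.2 percent were called higher, and 4.26 percent after the length correction, and the median longest transcript of this list was 5690 bases. The median log2 difference was 2.64 (1.49 after the length correction, 2.31 in HE1 replicate 0 alone and 1.37 between the WT stages). Postn (chromosome 3, 54361109 to 54391037), the matricellular protein periostin, was listed at 0 in all 3 Flk-1+ libraries and had 99.7 and 372 FPKM in HE1 (limma adjusted p = 8.46e-06). Tgfbi, another fasciclin-domain protein, had 0.680, 1.69 and 0.536 FPKM before and 39.8 and 60.7 after. The fibrillar collagen genes Col3a1 (0, 0.440 and 0 FPKM before and 23.2 and 27.9 after) and Col1a2 (0.373, 3.57 and 1.29 before and 21.8 and 96.8 after) and the matricellular Thbs1 (0.529, 0.659 and 0.317 before and 56.0 and 15.7 after) followed. Col1a2 was higher in replicate 1 and Thbs1 in replicate 0, and all lay above the Flk-1+ range in both. Basement membrane genes were among the calls, with log2 fold changes of 2.57 for Col4a1, 2.90 for Col4a2, 2.88 for Lamc1 and 3.84 for Nid1, all robust. Col1a1 was called at 2.08 on the log2 scale, with 19.03, 15.9 and 26.9 FPKM before and 29.6 and 259 after, and not called in replicate 0 alone. Fn1, fibronectin, was the most abundant member, with 609.6, 1595 and 883 FPKM before and 1608 and 4965 after, and was not called (adjusted p = 0.0931). The collagen prolyl hydroxylase genes P4ha1 (log2 difference 0.44) and P4ha2 (-1.52) were not called. Dcn, a small proteoglycan of connective tissue, did not pass the filter.

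Integrins are receptors for this matrix. Of 17 integrin genes, 13 were tested, 7 were called higher (4 robust), against 17.2 percent of all genes, and none lower, with a median longest transcript of 5812 bases and a median log2 difference of 2.03 (0.86 after the length correction). The laminin receptor chain Itga3 had 0.942, 1.53 and 0.656 FPKM before and 37.1 and 78.7 after, the collagen receptor chain Itga1 had 0.886, 1.56 and 0.621 before and 25.3 and 24.7 after, and Itga4, which binds VCAM1 and fibronectin, had 0.762, 1.29 and 0.542 before and 11.6 and 44.8 after. In all 3 the stages were well apart. Itga8, a chain of mesenchymal cells, was also a robust call, and Itga5, the fibronectin receptor chain, rose by 2.35 on the log2 scale. The common partner chain Itgb1 had 53.5, 52.9 and 38.1 FPKM before and 182 and 215 after. Itgb5 (log2 difference 0.09), Itga9 (0.28) and Itga6 (0.92) were not called.

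Target genes and components of TGF-beta and YAP signalling, both linked to stress fibres and matrix, were read together. They gave 9 calls among 18 tested members, all higher and 2 robust, against 17.2 percent of all genes called higher. Their median log2 difference of 1.42 became 0.56 after the length correction. Ankrd1, a muscle ankyrin protein and YAP target, had 0.133, 0 and 0 FPKM before and 28.1 and 3.14 after, and Axl, a receptor tyrosine kinase, had 2.68, 1.04 and 2.97 before and 13.8 and 37.3 after. These were the robust calls. Crim1 (log2 difference 2.85), Ctgf (2.16) and the coactivator gene Yap1 (1.85) were also called. The HE1 libraries differed here, since Cyr61 had 48.5 FPKM in replicate 0 and 1.36 in replicate 1, and the inhibitor gene Smad7 had 29.0, 47.8 and 44.8 before and 57.3 and 17.1 after. Tead2 (log2 difference 0.10), Tgfb1 (-0.19) and Smad7 (-0.32) were not called.

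Of 15 genes for epithelial-to-mesenchymal factors and cadherins, 14 were tested and 5 were called, all higher, against 17.2 percent of all genes. The intermediate filament gene Vim had 58.9, 78.6 and 57.2 FPKM before and 481 and 942 after, and Snai2, a repressor of E-cadherin, had 2.51, 2.69 and 0.480 before and 19.1 and 38.3 after, at the step at which its relative Snai1 fell. Both rises were robust. Cdh3 (P-cadherin, 3.32 on the log2 scale), Zeb1 (2.32) and Zeb2 (1.24) were called but not robust, and Zeb2 turned to -0.33 after the length correction. Cdh2, N-cadherin, had 55.2, 77.8 and 58.2 FPKM before and 71.3 and 67.0 after and was not called. The list median log2 difference was 0.74 as deposited and -0.06 after the correction.

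AP-1 and other immediate early genes respond within minutes to signals and to handling of cells. Of 22 genes, 20 were tested and 7 were called higher, 3 of them robust, against 17.2 percent of all genes, with a median log2 difference of 1.08 (0.56 after the length correction and 2.05 with HE1 replicate 0 alone). Klf2, a factor induced by flow in endothelium, had 0.632, 0 and 0.399 FPKM before and 18.97 and 10.98 after. Jun had 3.40, 3.87 and 2.90 before and 42.2 and 19.4 after, and Atf3, a stress-induced factor, had 0.520, 0.804 and 0.547 before and 21.8 and 4.10 after. Klf6 (log2 difference 2.58) and Btg2 (2.38) rose as well. Several members were seen in replicate 0 and hardly in replicate 1. The AP-1 gene Fos had 0.363, 1.06 and 0.654 FPKM in Flk-1+ cells, 37.7 in HE1 replicate 0 and was listed at 0 in replicate 1, and Egr1 had 1.04, 2.78 and 3.13 before and 20.0 and 2.66 after, neither of them called. Myc was not called, with 25.9, 59.7 and 35.1 FPKM before and 16.7 and 24.1 after (adjusted p = 0.139).

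Signalling by FGF and BMP shapes mesoderm. All 26 genes were tested, 4 were called higher and 3 lower, against 17.2 percent and 2.38 percent of all genes, and the median log2 difference was 0.58 (0.13 after the length correction, 0.32 with HE1 replicate 0 alone and -0.19 with a common median). The BMP target Msx2 had 20.2, 55.4 and 23.6 FPKM before and 7.04 and 7.76 after, the one robust call. The BMP target Id3 fell by 2.30 on the log2 scale and the ligand Fgf15 by 1.80, neither of them called in replicate 0 alone. The receptor genes Bmpr2 (log2 difference 2.72) and Bmpr1a (1.65), the ligand Bmp2 (1.43) and the feedback inhibitor Spry1 (2.09) were called higher. None of these higher calls held after the length correction. Fgfr1 (log2 difference 0.12), Bmp5 (-0.26) and Msx1 (-0.42) were not called. Between the WT stages the list median log2 difference was -0.95.

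Cardiac genes belong to another mesodermal programme. Of 23 genes, 18 were tested, 1 was called higher and 1 lower, against 17.2 percent and 2.38 percent of all genes. The median log2 difference was -0.46 (-0.70 after the length correction). The T-box factor Tbx20 had 47.6, 48.8 and 43.1 FPKM before and 190.2 and 116 after, a call that was lost after the length correction (difference 0.06 on the log2 scale). The atrial light chain gene Myl7 had 6.24, 23.2 and 11.1 before and 1.86 and 0 after. Hand1, a factor of extraembryonic and lateral mesoderm, had 84.5, 257 and 191 before and 117 and 210.3 after, and Gata4 had 68.3, 114 and 99.8 before and 71.9 and 52.0 after. Their stages overlapped, as did those of Gata6 (log2 difference 0.56), and none of the 3 was called.

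Imprinted genes, which control growth of the embryo, included some of the most abundant transcripts. All 20 were tested, 10 were called higher (4 robust), against 17.2 percent of all genes, and none lower, with a median log2 difference of 1.65 that became 0.43 after the length correction. Plagl1, a zinc finger regulator of the imprinted network, had 1.05, 4.48 and 0.907 FPKM before and 72.0 and 93.3 after. Igf2r, which clears IGF2, had 26.9, 41.7 and 27.9 before and 369 and 495 after, and Mest had 92.6, 125 and 82.0 before and 954 and 992 after. In these 3 genes the HE1 libraries lay close together. Dlk1, a Notch-like ligand, rose by 3.13 on the log2 scale and Zim1 by 3.02. The growth factor gene Igf2 had 284, 822 and 497 FPKM before and 1277 and 7269 after and was called at 2.64 on the log2 scale, but not in replicate 0 alone. Its neighbour H19 had 439, 28.9 and 672 before and 57.2 and 378 after, so that the HE1 values lay within the Flk-1+ range. Mirg (log2 difference 0.05), Snrpn (-0.42) and H19 (-0.48) were not called.

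Of the 6 DNA methylation enzymes, Tet3 (log2 difference 2.52), Dnmt3a (2.43) and Tet2 (1.84) were called higher, against 17.2 percent of all genes. None of these calls held after the length correction, which took the list median log2 difference from 1.29 to 0.06. The median longest transcript of these genes was 9432 bases. Tet1 (log2 difference 0.59), Dnmt1 (0.63) and Uhrf1 (0.74) were not called. Of 39 Hox cluster genes, 18 were tested and 1 was called higher, against 17.2 percent of all genes. Their median log2 difference was 0.82 (0.63 after the length correction). Hoxb8 was listed at 0 in the Flk-1+ libraries and had 1.79 and 18.98 FPKM in HE1, its neighbour Hoxb9 was listed at 0 in the same libraries and had 5.10 and 12.0, and Hoxb7 had 19.7 FPKM in replicate 1 and was listed at 0 in the other 4. The group mean of Hoxb9 stayed under 10 FPKM, so it could not be called, and Hoxb8 was not called in replicate 0 alone.

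Proliferation and cell cycle genes were read next. Of 26 genes, 25 were tested, 3 were called higher and 1 lower, against 17.2 percent and 2.38 percent of all genes. The median log2 difference of 0.36 lay near the 0.30 of all genes. After the length correction it was -0.35, against -0.24 for all genes. In that fit 1 was called higher and 4 lower, against 4.26 percent and 3.06 percent of all genes. Mki67, the proliferation antigen, had 121, 91.3 and 109 FPKM before and 575 and 585 after. Mki67 and Top2a (log2 difference 1.90) lost their calls after the length correction, at 0.77 and 0.69. The D-type cyclin gene Ccnd3 had 18.7, 33.1 and 21.8 before and 62.7 and 272 after and gave the robust call. Pcna, the sliding clamp of replication, had 7.004, 14.1 and 15.2 before and 2.42 and 0 after. The replication and mitosis genes Mcm5, Aurka and Mcm3 were not called, with log2 differences of 0.00, 0.00 and 0.20.

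Glycolytic enzymes were among the genes that fell. Of 21 genes, all tested, 4 were called lower and 1 higher, against 2.38 percent and 17.2 percent of all genes, with a median log2 difference of -0.95 (-1.54 after the length correction, -1.73 in HE1 replicate 0 alone and -0.93 between the WT stages). Ldha, lactate dehydrogenase, had 249, 292 and 269 FPKM before and 39.5 and 66.9 after. It fell by 2.37 on the log2 scale (standard error 0.31, limma adjusted p = 0.000276). Tpi1, triosephosphate isomerase, had 42.4, 45.8 and 64.8 before and 11.3 and 6.95 after, and Pkm, pyruvate kinase, had 185, 309 and 363 before and 31.4 and 125 after. These 3 calls were robust. The mTOR inhibitor gene Ddit4 fell by 1.90 on the log2 scale, while the glucose transporter gene Slc2a1 rose by 1.76. The hypoxia targets Ndrg1 (log2 difference -0.01), Vegfa (-0.11) and Egln3 (-0.17) were not called. Several glycolytic genes, Gapdh among them at 11.6, 5.18 and 17.3 FPKM before and 0.172 and 10.1 after, have near-identical pseudogenes, so their FPKM are uncertain.

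Many cytosolic ribosomal protein genes fell. Of 81 genes, 72 were tested, 21 were called lower (10 robust) and 1 higher, against 2.38 percent of all genes called lower. Their median log2 difference was -1.33 (-1.45 after the length correction, which left part of the trend among short transcripts). Their summed level was 3541, 5818 and 3466 FPKM in Flk-1+ cells, 642 in HE1 replicate 0 and 3716 in replicate 1. By this sum only replicate 0 lay below the Flk-1+ range. The median level of the tested members was 14.5, 19.9 and 9.23 FPKM in Flk-1+ cells and 2.84 and 2.93 in HE1, so by the median both HE1 libraries lay below it. Rps14 had 22.8, 41.9 and 24.7 FPKM before and 3.07 and 0 after. The largest fall on the list was that of Rplp2, in a locus that also holds a small nucleolar RNA gene. Rps18 (-4.15) and Rpl27a (-3.94) fell, Rpl24 rose by 1.89, and Rpl7, Rpl18 and Rpl6 were not called, with log2 differences of 0.03, 0.04 and 0.08. These short genes have many processed copies, and 27 of the 81 were listed at 0 in both HE1 libraries, so their levels are uncertain.

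**Figure D4:**
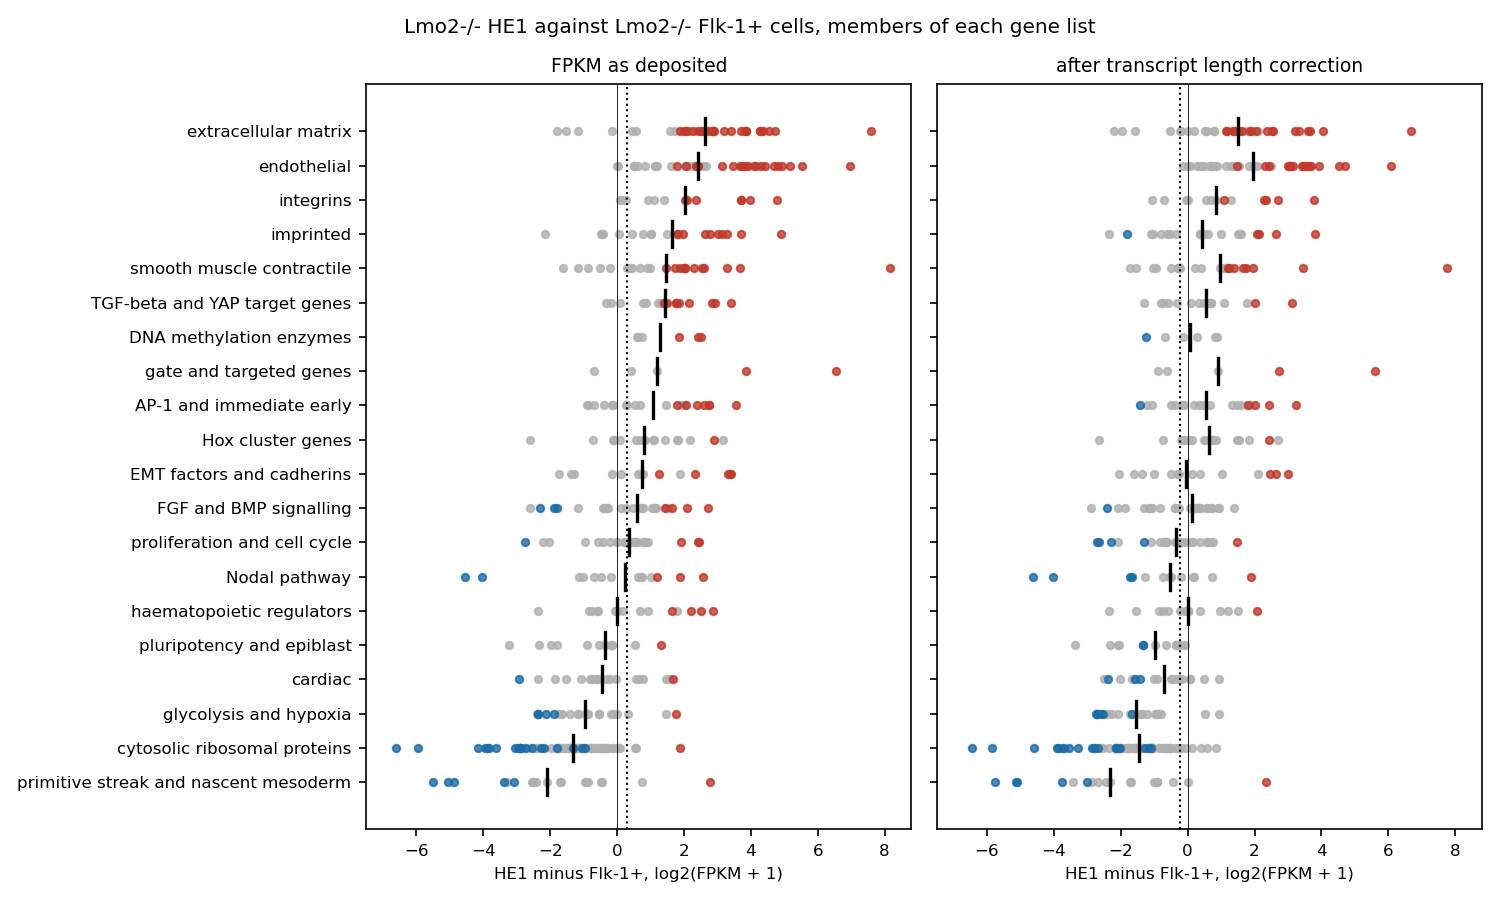
Lmo2-/- HE1 minus Flk-1+ difference (horizontal axis, log2(FPKM + 1)) of every tested member of the 20 gene lists, with FPKM as deposited (left) and after the length correction (right). Red members were called higher, blue lower and grey not called, bars mark list medians and the dotted line the median of all genes. The extracellular matrix and endothelial lists lie to the right and the primitive streak list to the left in both panels, while the medians of the Nodal, EMT and proliferation lists change sign.

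Over all genes, the 10 largest rises among calls with no overlap between stages were those of Acta2, Postn, Cdh5, Tek, Fmo1, Hecw2, Ednrb, Csf1, Pecam1 and Chst15, and all 10 were robust. Fmo1, a flavin monooxygenase, was listed at 0 in Flk-1+ cells and had 79.3 and 65.5 FPKM in HE1. Ednrb, an endothelin receptor, was listed at 0 before and had 32.3 and 78.7 after. Csf1, the macrophage growth factor gene, had 0.335, 4.30 and 2.93 before and 152 and 157 after, the ubiquitin ligase gene Hecw2 had 0.599, 1.12 and 0.473 before and 71.8 and 119 after, and the sulphotransferase gene Chst15 had 1.63, 1.33 and 1.70 before and 98.8 and 132 after. The 10 largest falls were mostly of short transcripts. Gm26397, Gm25835, Snora73b, Gm22270, Gm22422, Gm24727 and Gm25291 are small RNA genes with transcripts of 132 to 205 bases, so short that FPKM from an mRNA library are uncertain. Rplp2 was also among them, as was Ifitm1, an interferon-induced membrane protein of gastrulating mesoderm that had 32.5, 156 and 31.4 FPKM in Flk-1+ cells and was listed at 0 in HE1. Among genes with a transcript over 1000 bases, a limit chosen after the values were seen, the largest fall was that of Eomes, followed by Dpysl5, the Eif4a1 locus, Cdh13, T, Lhx1, Qtrt1, Tdgf1, the Snhg12 locus and Vrtn. Dpysl5, a cytoskeletal regulator of neurons, had 36.0, 43.3 and 47.6 FPKM in Flk-1+ cells and 0.481 and 0 in HE1, and Vrtn, a regulator of somite number, had 27.9, 31.0 and 36.5 before and 1.41 and 0 after.

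Markers of other cells were read in the same libraries. In bulk RNA, as in every result here, more cells of a type and more RNA per cell cannot be told apart. Of 10 macrophage markers, 8 were listed at 0 in all 5 Lmo2-/- libraries, among them Csf1r, Ptprc and Adgre1, and the summed list reached at most 2.51 FPKM in HE1. Of 8 primitive erythroid markers, 7 were listed at 0 in all 5, including every globin gene on the list. Embryonic stem cell markers summed to 6.85, 4.31 and 7.81 FPKM in Flk-1+ cells and 0.533 in HE1 replicate 0. The 7 cardiomyocyte markers summed to 12.7 FPKM in replicate 0 and were all listed at 0 in replicate 1, and the 11 endoderm markers summed to 8.02 and 0.179. Of the neural list only Nes, an intermediate filament gene also found in endothelium, exceeded 1 FPKM in HE1, with 55.6 and 17.8.
Fibroblast and pericyte markers were detected at both stages. The 10 markers summed to 70.5, 81.3 and 75.2 FPKM in Lmo2-/- Flk-1+ cells, 129 and 502 in Lmo2-/- HE1, and 12.0 and 13.1 in WT HE1. Of 7 tested, 3 were called higher, against 17.2 percent of all genes. The median log2 difference was 2.08 (0.78 after the length correction and 0.53 with HE1 replicate 0 alone). The platelet-derived growth factor receptor gene Pdgfrb had 3.69, 4.64 and 5.52 FPKM before and 30.3 and 67.7 after, a robust call, and WT HE1 had 2.38 and 2.28. Lum had 1.55 and 7.05 FPKM in HE1, the pericyte marker Rgs5 had 4.86 and 46.2, Dcn had 0.987 FPKM in replicate 0 and was listed at 0 in replicate 1, Thy1 and Tbx18 were listed at 0 in both, and Cspg4 stayed below 1 FPKM. Col1a1, Col3a1, Lum and Dcn are on the matrix list too, so these markers are not independent of it. Of the 3 calls, those of Col1a1 and Col3a1 are also counted among the matrix genes. The part of these markers in the matrix and contractile results was not tested.

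Whether the step differed from that of WT cells was tested as the interaction of genotype and stage in the same fit. It called 48 genes, of which 36 had a more positive step in Lmo2-/- cells (0.261 percent of genes tested) and 12 a more negative one (0.0869 percent). Of the 36, 25 had a negative difference between the WT stages, and 29 were called higher between the Lmo2-/- stages. Itga8 (chromosome 2, 12106632 to 12312315), an integrin chain of mesenchymal cells, had 4.73, 3.73 and 5.11 FPKM in Lmo2-/- Flk-1+ cells and 48.9 and 146 in Lmo2-/- HE1, against 7.04, 3.25 and 6.26 and then 0.631 and 0.385 FPKM in WT. The interaction for Itga8 came to 6.03 (log2) with a standard error of 0.69 and a limma adjusted p of 0.0101, and after the length correction to 5.14 with an adjusted p of 0.0109. The WT HE1 libraries lay below, and the Lmo2-/- HE1 libraries above, every Flk-1+ library.

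Pdgfra and Cdh11 were also called in the interaction. Pdgfra, the receptor that marks paraxial and lateral mesoderm, had 28.3, 27.9 and 25.3 FPKM in Lmo2-/- Flk-1+ cells and 37.3 and 94.5 in Lmo2-/- HE1, against 42.8, 22.5 and 24.3 in WT Flk-1+ cells and 2.98 and 1.01 in WT HE1. The interaction for Pdgfra came to 4.49 (log2) with a limma adjusted p of 0.0105. Cdh11, a mesenchymal cadherin, had 27.1, 39.7 and 24.8 before and 45.5 and 58.3 after, against 65.8, 26.5 and 32.1 and then 2.19 and 2.72 in WT, with an interaction of 4.28 on the log2 scale. Neither gene was called between the Lmo2-/- stages, and in both the WT HE1 libraries lay below the WT Flk-1+ range. Igfbp5, an IGF-binding protein, had 15.8 and 63.0 FPKM in Lmo2-/- HE1 and 0.427 and 0.521 in WT HE1, and the kinesin gene Kif5c had 38.6 and 128 in Lmo2-/- HE1 and 0.434 and 2.12 in WT HE1. Pdzrn3, a ubiquitin ligase gene, had 14.9 and 51.4 FPKM in Lmo2-/- HE1 and the orphan receptor gene Gpr50 had 12.5 and 134, and both were listed at 0 in WT HE1. In all 4 genes replicate 1 was several-fold above replicate 0. None of the 4 was called after the length correction, with limma adjusted p = 0.078 for Igfbp5, 0.0748 for Kif5c, 0.0723 for Pdzrn3 and 0.0513 for Gpr50, or with HE1 replicate 0 alone, with adjusted p = 0.0993, 0.157, 0.118 and 0.0503 in the same order. The 7 tested fibroblast and pericyte markers had a median interaction on the log2 scale of 3.19 (2.42 after the length correction), positive in 6 of them, and their part in the interaction was not tested. Of the matrix list, Tgfbi and Loxl2 were called, but neither was called after the length correction (limma adjusted p = 0.0513 and 0.104). Tgfbi, with the Lmo2-/- values given above, had 2.11 and 1.94 FPKM in WT HE1, and Loxl2, a collagen cross-linking enzyme, had 66.0 and 121 in Lmo2-/- HE1 and 10.2 and 5.38 in WT HE1. The angiopoietin genes, whose products bind Tie2 and which were picked after their values were seen, were listed at 0 in Lmo2-/- Flk-1+ cells. Angpt1 had 12.8 and 11.05 FPKM in Lmo2-/- HE1 and 0.695 and 0.449 in WT HE1, and Angpt2 had 7.79 and 19.03 in Lmo2-/- HE1 and 0 and 0.396 in WT HE1. Angpt2 kept its call after the length correction (limma adjusted p = 0.0393) and Angpt1 did not (0.0513).

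In the other direction, Gsta4, a glutathione transferase, had 2.64, 2.59 and 1.67 FPKM in Lmo2-/- Flk-1+ cells, was listed at 0 in both Lmo2-/- HE1 libraries and had 40.8 and 37.4 FPKM in WT HE1. The ribosomal protein gene Rps15a and the short transcripts Gm13736 and 2410006H16Rik were also among the most negative interactions. Igf1, also picked after its values were seen, had 3.04 and 0.746 FPKM in Lmo2-/- HE1 and 82.5 and 40.7 in WT HE1. Gsta4 kept its call after the length correction (limma adjusted p = 0.0109) and Igf1 did not (0.0513). After the length correction 19 of the 48 genes were called, all in the same direction, and with HE1 replicate 0 alone 13 of the 36 and 3 of the 12 remained. The count was 8 to 27 genes when any library of these groups other than Lmo2-/- HE1 replicate 0 was left out, and 1170 without that library.

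**Figure D5:**
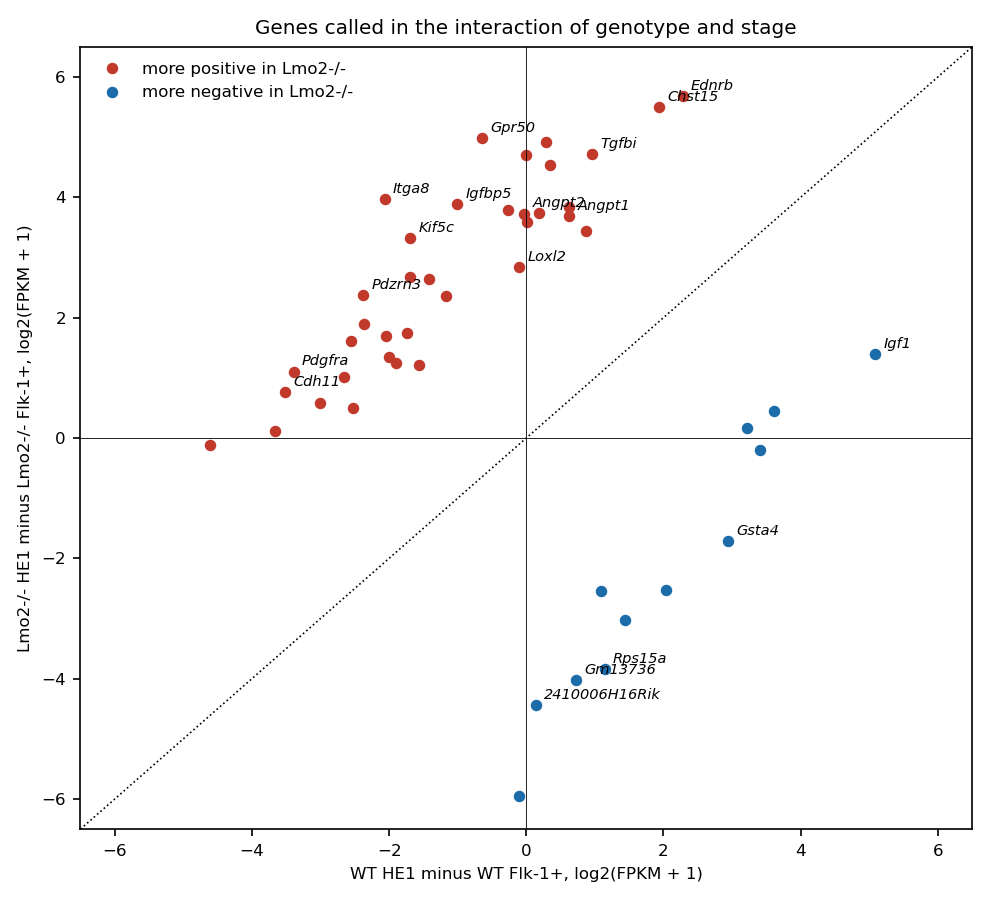
Difference between the stages in WT (horizontal axis) and in Lmo2-/- cells (vertical axis), both on the log2(FPKM + 1) scale, for the 48 genes called in the interaction. The dotted line marks equal steps. Red genes lie above it, 25 of 36 of them left of 0 on the WT axis, and blue genes lie below it.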

How the data were processed

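RNA was read as poly(A) RNAseq in 13 libraries of Flk-1+ cells (WT, Lmo2-/- and Tal1-/-) and HE1 (WT and Lmo2-/-). The deposited values are FPKM per gene. Per the submitters' notes and the study's methods, the authors aligned reads to GRCm38/mm10 with TopHat2 2.0.9, assembled transcripts with Cufflinks 2.0.0 under quartile normalization and effective length correction, and scaled the FPKM over libraries with Cuffnorm. FPKM hold no fragment counts, so depth is unknown, no counting interval or limit for a value of 0 can be given, and short or multi-copy genes are uncertain. Columns of per-sample values not used numbered 0. Deposited tables of fold changes and p-values hold the authors' own comparisons and were not used. Groups came from the genotype and cell type labels, and column names show the group of each library but no culture or animal, so p-values measure the spread between these libraries.

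Genes with at least 1 FPKM in 2 of the 13 libraries (13802) were fitted as log2(FPKM + 1), a scale that understates changes of low genes, with limma 3.58.1 (R 4.3.3), 5 group means and a mean-variance trend. Contrasts were Lmo2-/- HE1 minus Lmo2-/- Flk-1+, and that step minus the WT step (the interaction). Calls needed a Benjamini-Hochberg adjusted p below 0.05 over all genes and a mean above 10 FPKM in a group compared. The fit was tested on simulated data. Alternatives covered the pseudocount, filters, scaling, trend, array weights, a replicate block and each library left out. A length correction (lowess of span 0.3 on the longest GENCODE M21 transcript, known for 96.2 percent of tested genes) was added after the data were seen. Python 3.11.15, pandas 2.3.3 and matplotlib 3.10.9 made the summaries and figures.

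Genes named were those of the sort gate, up to 5 called members per list and direction whose stages did not overlap, up to 3 abundant members with the smallest change, the 10 largest rises and falls, 5 interaction genes per direction, defining markers of other cells and regulators the paper names. Some genes that this rule names are not reported here. Other genes were picked after their values were seen. The members and lists were chosen with earlier results of these data known.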

Additional observations from a re-analysis of the deposited data

Results flagged for a closer look

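The step from Flk-1+ cells to HE1 differed between Lmo2-/- and WT cells in 48 genes by the limma test of the interaction of genotype and stage, at an adjusted p below 0.05. Their number depended on the libraries and on the length correction. The 36 genes with a more positive step in Lmo2-/- cells had a median longest transcript of 5228 bases and the 12 with a more negative step one of 1330 bases, against 3198 for all genes tested, and the part of length in these calls was not tested. After the length correction the sign stayed the same in all 12 and in all 35 of the 36 that had an annotated transcript, which Fam46c lacked, and 19 were called.

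By size on the log2 scale, the more positive interactions were those of Itga8 (6.03), Gpr50 (5.63), Kif5c (5.02), Igfbp5 (4.89) and Pdzrn3 (4.76). Other genes called were the growth factor receptor gene Pdgfra at 4.49, the matrix genes Smoc2 at 4.71, Tgfbi at 3.76 and Loxl2 at 2.94, the cadherin gene Cdh11 at 4.28 and the sulphotransferase gene Chst15 at 3.57. Smoc2 and the genes of guidance, Wnt5a and vascular signals that follow were picked after their values were seen. The guidance genes Slit3 and Sema5a had interactions of 4.37 and 4.05, the teneurin gene Tenm4 3.78, the Wnt5a receptor genes Ror1 and Ror2 3.55 and 3.49, and the endothelin receptor gene Ednrb 3.40. The angiopoietin genes Angpt1 and Angpt2, listed at 0 in Lmo2-/- Flk-1+ cells, had 3.06 and 3.76, fitted values that depend on the pseudocount. In each of these genes both Lmo2-/- HE1 libraries lay above both WT HE1 libraries. The genes were selected as called in the interaction, so this separation is no separate check. Of the genes in this paragraph, Itga8, Pdgfra, Cdh11, Smoc2, Tenm4 and Angpt2 were also called after the length correction. The others were not, with limma adjusted p from 0.0513 to 0.104.

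Among the more negative interactions were those of the ribosomal protein gene Rps15a (-4.98), the short transcripts Gm13736 (-4.75) and 2410006H16Rik (-4.58), the glutathione transferase gene Gsta4 (-4.65) and the growth factor gene Igf1 (-3.70). Of these, only Igf1 was not called after the length correction (limma adjusted p = 0.0513). Gm13736, Gsta4 and 2410006H16Rik were listed at 0 in both Lmo2-/- HE1 libraries, and Gpr50, Pdzrn3 and Smoc2 in both WT HE1 libraries, so their values too depend on the pseudocount.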

How the results depend on the processing

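The number of calls depended on scaling, on length and on the HE1 libraries, and the cause was not tested. Genes called higher in Lmo2-/- HE1 fell from 2379 to 685 with quantile normalization, 700 with a common median, 1022 with only the 5 Lmo2-/- libraries in the fit, 886 with array weights, 566 with the length correction and 396 with that correction without HE1 replicate 1. Genes called lower changed from 328 to 563, 664, 87 and 90 under the first 4 of these and to 788 with no FPKM criterion. With one library left out, calls were 1396 to 3418 higher and 220 to 403 lower, the 1396 being without HE1 replicate 1. The interaction count of 48 became 29 with a filter of 10 FPKM, 11 with quantile normalization, 20 with a common median, 5 with array weights, 19 and 15 with the length correction with and without HE1 replicate 1, and 8 to 1170 with one library left out. That range was 10, 20 and 10 without WT Flk-1+ replicates 0, 1 and 2, 10, 9 and 8 without the Lmo2-/- Flk-1+ replicates, 8 and 27 without the WT HE1 replicates, and 1170 and 24 without Lmo2-/- HE1 replicates 0 and 1. The remaining alternatives, apart from the replicate block, kept these counts within 1.5 times. An arm left with a single library was assumed to vary like the other groups. Of 181 called genes on the lists or named, 127 kept their call with HE1 replicate 0 alone, 126 with a common median, 133 with quantile normalization, 107 with array weights and 115 with the length correction. After that correction the sign reversed for Trim71 (log2 -0.31, and -0.14 without HE1 replicate 1) and Zeb2 (-0.33 and -0.064), and only without HE1 replicate 1 for Col1a1 (-0.56), Hspg2 (-0.19), Tet2 (-0.37) and Rpl26 (0.17). With a replicate block, 1917 genes were higher, 272 lower and 14 called in the interaction. Replicate numbers come from column names alone, and deviations of same-numbered Lmo2-/- libraries correlated at 0.111 and 0.0612, so the numbers are not taken to pair the libraries.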
